A study of Mus musculus with 7 samples.

Results

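Complement is a cascade of plasma proteins, most of them secreted by hepatocytes, that marks and destroys cells. The mouse genes studied here are 37 complement genes, taken by name from a list that covers the classical, lectin, alternative and terminal arms, the soluble and membrane regulators, and the receptors. All 37 were found among the 23594 genes of the liver table, and all 37 reached the minimum mean for testing (10 normalized counts). The livers came from 3 TgL and 4 TgLC mice, injected as young adults, and the study used them to ask how a rise in leukemia inhibitory factor (LIF), a cytokine of the IL-6 family, changes the liver. TgL mice carry mouse Lif with eGFP in the Rosa26 locus behind a CAG promoter and a STOP cassette. TgLC mice also carry R26-CreERT2, a Cre made in all tissues that tamoxifen (TAM) activates to remove the STOP cassette. Every mouse of both groups received TAM i.p. once, at 32 µg per g of body weight in females and 64 µg per g in males, and no group went without TAM. Cre and induced Lif are both present in TgLC mice alone, so their effects cannot be told apart. Lif is not confined to the liver in this model, and no source used here gives the sex of each mouse or its day of collection.

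In the classical arm C1q binds antibody and activates the proteases C1r and C1s, which cut C4 and C2. In the lectin arm, mannose-binding lectins and ficolins bind sugars and act through the MASP proteases on the same C4 and C2. Both arms, and the alternative arm with factors B and D and properdin, cut C3, and the terminal components then assemble into the membrane attack complex, while soluble and membrane-bound regulators hold the cascade in check. In the liver, hepatocytes secrete most components as acute-phase or constitutive plasma proteins, and Kupffer cells, the resident macrophages, make C1q.

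Values are the deposited normalized counts, that is, reads per gene divided by a size factor for each mouse. Values in single mice are listed in the order TgL mice 1 to 3 and TgLC mice 1 to 4, and means are given ± SD with n = 3 TgL and n = 4 TgLC livers. Each gene was tested by limma on log2(normalized count + 1), with p values adjusted over all 13145 genes tested, and the standard error (SE) of a log2 fold change is from that fit. A gene was called higher or lower in TgLC livers at an adjusted p under 0.05, and counted as a DEG where the absolute log2 fold change was also at least 1.

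Libraries held 9367681 to 12448961 reads in genes. Lif, which checks the labels, stood at 0.894, 1.99 and 0 normalized counts in TgL livers and 10, 12.3, 10.1 and 25.0 in TgLC livers, without overlap (p = 0.0571 in an exact two-sided permutation test, the lower limit for 3 mice against 4). All 10 listed hepatocyte markers were present in both groups. Their summed level was 1236580 to 1293100 in TgL and 802754 to 949343 in TgLC livers, with 2 called higher and 4 lower. Most of each sum was Alb, at means of 959092 and 629206. Its groups lay apart, but it did not pass (log2 fold change -0.61, adjusted p = 0.169 by limma). Exocrine pancreas markers, 11 of 11 tested, were lower, with sums of 551 to 965 in TgL and 5.01 to 8.0 in TgLC livers, and their part in the results below was not tested. TgL mice 1 and 2 and TgLC mice 1 and 2 have labels from 1 number series, while TgL mouse 3 and TgLC mice 3 and 4 fall outside it. TgL mouse 3 still has a number label, but TgLC mice 3 and 4 have labels of another style, found in TgLC alone. Those livers also had fewer genes above 0 (18169 and 18604, against 19795 to 20215 in the others). In TgLC mice 3 and 4 label style therefore cannot be told apart from genotype, and the label series as a covariate does not separate them. The fit within the number series holds mice of 1 label style only.

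Of the 37 complement genes, 12 were called higher and 4 lower in TgLC livers, and 21 did not pass. Among all genes tested, 31.2% were called by this criterion, 16.2% higher and 15% lower. DEGs made up 6 of the higher and 2 of the lower complement genes, against 7.53% and 6.65% (14.2% in either direction) of all genes tested. The median log2 fold change was 0.44 over the 37 genes and 0.00 over all genes tested. Of the calls over the whole table, 51.8% were higher. Scaling by library totals in place of size factors moved the median of all genes by -0.31 on the log2 scale and brought that share to 21.5%. By library totals 10 complement genes were called higher and 7 lower, beside 1174 and 4286 of all 13145 genes tested. Within the number series, 2 mice against 2, 20 complement genes were called higher and 5 lower, beside 38.4% of all genes tested there in either direction. The genes that gained a call there were C1qa, C1qc, Masp1, Cfp, Hc, C6, Cd55 and Cd93, higher, and Cfhr2 and Cd59a, lower, while C9 lost its call. With the label series as a covariate, C1qa and Masp1 gained a call, giving 14 higher and 4 lower, beside 33.4% of all genes tested. In a bulk liver library, fewer cells of a type and less RNA per cell cannot be told apart.

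**Figure D1:**
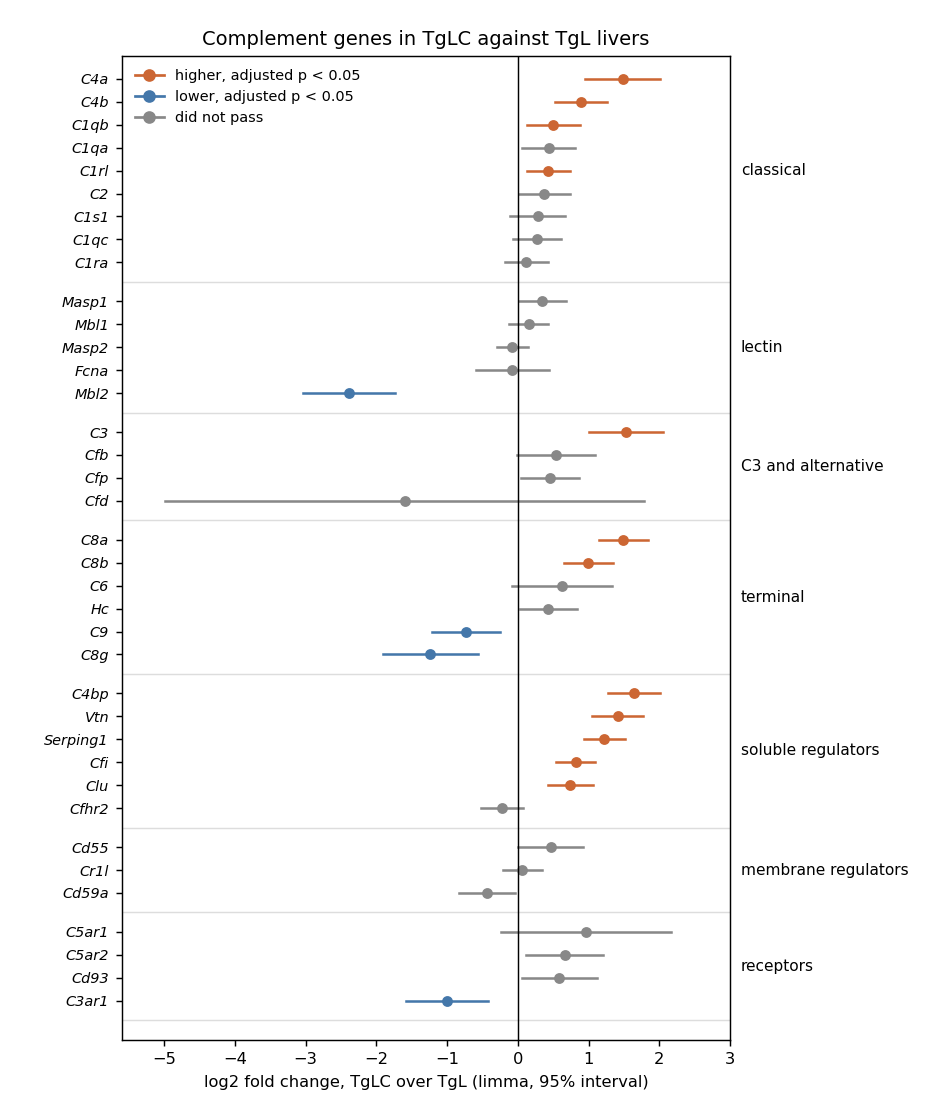
Log2 fold change of each of the 37 complement genes in TgLC over TgL livers (x axis, limma on log2(normalized count + 1)), with 95% intervals as lines, grouped by arm of the cascade. Orange points are the 12 genes called higher, blue points the 4 called lower and gray points the 21 that did not pass, from 1.64 for C4bp to -2.39 for Mbl2, and the long line is that of Cfd.

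The letters upstream of some members are shown first, because 3 subunits of a single protein, C8a, C8b and C8g, moved in different directions, and because Mbl2 fell while the related Mbl1 did not pass the test. The RefSeq table of promoter windows (GRCm38.p6, 250 bases before to 50 after each start) held 30 windows for 27 of the 37 genes. It had none for C1qa, C2, C4a, C4b, Cd93, Cfb, Cfi, Clu, Masp1 and Serping1. Both strands were searched for a STAT motif (TTCNNNGAA), the IL-6 response element of acute-phase genes (CTGGGAA) and a C/EBP motif (TTGCNNAA). The first pair overlap where the STAT motif reads TTCTGGGAA. In the lines below, the 250 bases before the start are given 5′ to 3′ in the direction of the gene, and capitals mark matches to the STAT, IL-6 or C/EBP motif. The windows are chr4:104876399-104876648 on the minus strand for C8a, chr4:104766067-104766316 on the plus strand for C8b, chr2:25501720-25501969 on the minus strand for C8g (of the pair of windows in the table, the one at a transcript start of GENCODE), chr17:57228137-57228386 on the minus strand for C3, and chr4:148602294-148602543 on the plus strand for Masp2.
C8a: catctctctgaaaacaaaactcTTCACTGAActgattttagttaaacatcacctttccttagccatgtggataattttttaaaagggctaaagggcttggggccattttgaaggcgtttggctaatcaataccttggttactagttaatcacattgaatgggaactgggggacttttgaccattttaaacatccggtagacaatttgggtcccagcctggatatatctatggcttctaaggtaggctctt
C8b: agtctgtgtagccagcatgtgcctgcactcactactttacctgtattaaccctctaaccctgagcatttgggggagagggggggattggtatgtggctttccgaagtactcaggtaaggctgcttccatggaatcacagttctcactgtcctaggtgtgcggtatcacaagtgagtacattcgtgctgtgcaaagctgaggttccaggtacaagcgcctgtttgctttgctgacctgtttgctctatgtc
C8g: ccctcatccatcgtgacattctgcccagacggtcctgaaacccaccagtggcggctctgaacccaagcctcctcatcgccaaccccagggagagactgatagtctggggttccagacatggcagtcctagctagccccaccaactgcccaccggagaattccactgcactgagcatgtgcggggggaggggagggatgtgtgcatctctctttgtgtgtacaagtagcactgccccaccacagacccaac
C3: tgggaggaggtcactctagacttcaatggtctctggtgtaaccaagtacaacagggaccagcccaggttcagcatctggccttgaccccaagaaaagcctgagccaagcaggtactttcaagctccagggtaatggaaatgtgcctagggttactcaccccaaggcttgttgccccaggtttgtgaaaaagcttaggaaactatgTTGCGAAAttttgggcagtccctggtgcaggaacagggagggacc
Masp2: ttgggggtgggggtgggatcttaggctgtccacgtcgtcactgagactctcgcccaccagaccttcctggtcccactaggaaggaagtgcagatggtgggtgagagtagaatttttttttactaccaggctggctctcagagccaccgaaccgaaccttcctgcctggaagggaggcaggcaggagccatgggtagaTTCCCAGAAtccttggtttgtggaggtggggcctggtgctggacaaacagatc
C8a held a STAT match, C8b and C8g held none of the marked motifs in these bases, and C3 held a C/EBP match. Masp2, whose level did not pass the test, is shown because its STAT match contains the IL-6 response element on the opposite strand.

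The next lines show the lectin pair, at chr14:41151206-41151455 for Mbl1 and chr19:30232678-30232927 for Mbl2, both on the plus strand. Capitals here mark the longest run of bases that both windows hold, 13 bases long, which occurs in 3 of the 32851 promoter windows of the table.
Mbl1: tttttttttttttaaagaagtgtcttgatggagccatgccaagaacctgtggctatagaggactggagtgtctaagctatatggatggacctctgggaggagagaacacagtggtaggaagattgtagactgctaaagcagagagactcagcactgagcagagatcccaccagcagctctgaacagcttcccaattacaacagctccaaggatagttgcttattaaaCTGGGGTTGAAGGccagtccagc
Mbl2: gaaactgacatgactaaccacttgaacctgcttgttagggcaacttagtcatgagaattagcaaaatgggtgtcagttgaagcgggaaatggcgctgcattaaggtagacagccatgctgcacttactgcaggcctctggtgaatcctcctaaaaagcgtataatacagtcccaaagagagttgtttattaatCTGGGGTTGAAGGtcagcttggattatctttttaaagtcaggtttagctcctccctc
The shared run begins at position -23 from the start in Mbl1 and at -57 in Mbl2, and neither window held a STAT, IL-6 or C/EBP match.

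For Vtn, which was called higher, the STAT match lies 35 bases after the start, and the 30 bases around it on the plus strand, chr11:78499140-78499169, carry an overlapping IL-6 response element.
Vtn: ctcctggggctggggTTCTGGGAAtgtgac
A STAT match was present in 5 of the 30 complement windows and in 8.3% of all 32851 windows. Counted by gene, it was in 2 of 7 genes called higher (C8a and Vtn), 0 of 4 called lower, and 3 of 16 that did not pass (C1ra, Cfhr2 and Masp2). The IL-6 response element was in 6 complement windows against 11.1% of all windows, and the C/EBP motif in 6 against 10.8%. The NF-kB motif was in 13 complement windows against 50.8% of all windows, and the HNF1 motif in 0 against 0.00913%. These are matches of letters only.

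C4b and its paralog C4a both rose, while most C1 subunit genes did not pass. In the classical arm 4 of 9 genes were called higher (C4a, C4b, C1qb and C1rl) and 0 lower, with a median log2 fold change of 0.43. C4b encodes C4, whose larger fragment binds covalently to surfaces, and was at 20191, 18610.1 and 22182 normalized counts in TgL livers and 33794, 35766, 45247 and 37144 in TgLC livers. The groups lay apart, with means of 20328 ± 1789.8 and 37988 ± 5031 and a log2 fold change of 0.90 (SE 0.16, adjusted p = 0.00331 by limma). C4a, its paralog, was far less abundant per kilobase of exon (13.0 against 3569 normalized counts per kb in TgL livers) and was at 76.9, 56.7 and 109 normalized counts in TgL and 276, 229, 180.1 and 204 in TgLC livers. Its lowest TgLC value was above its highest TgL value, and it had means of 80.9 ± 26.4 and 222 ± 41.0 and a log2 fold change of 1.48 (SE 0.23, adjusted p = 0.00167 by limma). The log2 fold change of C4a was 1.91 within the number series and 0.81 in the mice outside it, where a single TgL liver remained. C4a and C4b are near-identical, so reads may be split between them, and the ratio of C4b to C4a overlapped between groups, at 203 to 328 in TgL and 122 to 251 in TgLC livers.

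C1rl, which encodes a protease resembling C1r, was at 1325, 1276 and 1272 normalized counts in TgL and 1517, 1610.2, 2129.9 and 1774 in TgLC livers. The lowest TgLC liver, of mouse 1, exceeded the highest TgL liver, and the gene had a log2 fold change of 0.43 (SE 0.13, adjusted p = 0.0351 by limma). C1qb encodes the B chain of C1q and was at 468, 525 and 645 in TgL and 634, 761, 956 and 751 in TgLC livers. TgL mouse 3 lay above TgLC mouse 1, so the groups overlapped, with a log2 fold change of 0.50 (SE 0.17, adjusted p = 0.0456 by limma). Both calls were near the threshold. For C1rl the adjusted p by limma was 0.0931 without TgL mouse 1, 0.108 without TgL mouse 2, 0.0913 without TgL mouse 3 and 0.0691 without TgLC mouse 4. The call of C1qb was lost without TgL mouse 1 or 2 or TgLC mouse 2, 3 or 4, with adjusted p values by limma from 0.0758 to 0.177, and scaling by library totals ended both calls (adjusted p = 0.445 for C1rl and 0.384 for C1qb by edgeR).

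The other chains of C1q, C1qa at 468 ± 74.5 and 635 ± 115 normalized counts in TgL and TgLC livers and C1qc at 528 ± 69.0 and 637 ± 94.3, did not pass. Their log2 fold changes were 0.44 and 0.27 (adjusted p = 0.0739 and 0.209 by limma). Both passed within the number series, at 0.39 for C1qa and 0.42 for C1qc (adjusted p = 0.0202 and 0.0150 by limma). With the label series as a covariate C1qa passed at 0.38 (adjusted p = 0.0394 by limma). The value of C1qc became -0.046 with library totals. The 3 chain genes lie side by side on chromosome 4 in RefSeq order, and the ratio of C1qb to C1qc overlapped between groups, at 0.974 to 1.06 and 1.02 to 1.46.

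C1q is made by macrophages, and its level was set beside Kupffer markers. Summed over the 3 chains it was 1357, 1464 and 1804 normalized counts in TgL and 1801, 2015, 2487 and 1890.4 in TgLC livers. The 10 listed Kupffer markers, of which 0 were called in either direction and none was at 0, summed to 5513, 5427 and 7030.3 in TgL and 5640.3, 5792, 6546 and 3847 in TgLC livers. TgLC mouse 4 had the lowest marker sum and a C1q sum above that of every TgL liver. C1q per unit of Kupffer marker was 0.246 to 0.270 in TgL and 0.319 to 0.491 in TgLC livers, without overlap. Among the 10 markers, Adgre1, Csf1r and Folr2 were lower in every TgLC liver (log2 fold changes of -0.53, -0.44 and -0.83). Marco was higher in every TgLC liver (0.69), and the others overlapped between groups, so the ratio depends on which markers are summed. The part of Kupffer cell number in the C1q values was not tested.

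The proteases of the first complex did not pass. C1ra, which encodes C1r, averaged 2318 ± 189.7 and 2531 ± 350.1 normalized counts, and C1s1, which encodes C1s, 3446 ± 82.0 and 4270.0 ± 946, with log2 fold changes of 0.12 and 0.28 that took the opposite sign with library totals (-0.19 and -0.013) and within the number series (-0.12 and -0.013). The 95% interval of the C1ra difference was -0.19 to 0.43 on the log2 scale. C1rl, C1ra and C1s1 are neighbours on chromosome 6 in RefSeq order, with the near-copies C1rb and C1s2 beside them, so their reads may be shared in part. C2, the protease that joins C4b in the C3 convertase, averaged 289.8 ± 31.2 and 378 ± 66.7 normalized counts (log2 fold change 0.37, adjusted p = 0.110 by limma), and without TgLC mouse 2 its log2 fold change was 0.47 and it passed (adjusted p = 0.0486 by limma).

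Mbl2 had the largest change of the 37 genes in either direction and was the one gene called in the lectin arm, where 0 of 5 were higher and 1 was lower. It encodes mannose-binding lectin C, a plasma lectin of hepatocytes, and was at 4427, 4369.6 and 4773 normalized counts in TgL and 680.0, 968, 1490.5 and 568 in TgLC livers. The highest TgLC liver, of mouse 3, was still 2.93-fold below the lowest TgL liver. The mean fell 4.88-fold, from 4523 ± 218 to 927 ± 412, with a log2 fold change of -2.39 (SE 0.29, adjusted p = 0.000378 by limma). Mbl1, which encodes mannose-binding lectin A, was at 1808, 1707 and 1846 in TgL and 2149, 1862, 2257 and 1737 in TgLC livers. Its groups overlapped, and its log2 fold change, 0.16, did not pass (adjusted p = 0.364 by limma) and was -0.16 with library totals. The ratio of Mbl1 to Mbl2 reads went from 0.395 ± 0.0116 to 2.41 ± 0.821, with ranges of 0.387 to 0.408 and 1.51 to 3.16. Per kilobase of exon, Mbl2 exceeded Mbl1 in TgL livers (4154 against 1138 normalized counts per kb) and was below it in TgLC livers (851 against 1275).

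The proteases and the ficolin of the lectin arm did not pass. Masp1, which encodes the protease that activates the lectin complex, was at 2112, 2449.6 and 2273 normalized counts in TgL and 3348, 3312, 2437 and 2597 in TgLC livers. TgLC mice 1, 2 and 4 lay above every TgL liver and TgLC mouse 3 lay just under TgL mouse 2. Its log2 fold change of 0.35 (SE 0.15, adjusted p = 0.101 by limma) became 0.43 without TgLC mouse 3, with an adjusted p of 0.0410 by limma. It also passed with the label series as a covariate, at 0.39 (adjusted p = 0.0432 by limma), and within the number series, at 0.55 (adjusted p = 0.00542 by limma). Masp2, the lectin protease that cuts C4 and C2, was at 1655, 1561 and 1509 in TgL and 1574, 1462, 1504 and 1429 in TgLC livers. It had the smallest standard error of the arm (0.10), with a log2 fold change of -0.08 and a 95% interval of -0.30 to 0.15, although with library totals it passed at -0.39 (adjusted p = 0.0148 by edgeR). Fcna, ficolin A, which macrophages make, averaged 346 ± 37.8 and 339 ± 121, and its log2 fold change of -0.08 turned to 0.015 without TgLC mouse 1.

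C3 was the most abundant complement transcript per kilobase of exon in both groups and rose further. C3 is the central component on which all arms converge, and its level was 139320.0, 127818 and 126266 normalized counts in TgL and 392287, 390454, 407988 and 328877 in TgLC livers. The lowest TgLC liver was 2.36-fold above the highest TgL liver. Mean levels were 131134 ± 7131 and 379902 ± 34915, a 2.897-fold difference and a log2 fold change of 1.53 (SE 0.23, adjusted p = 0.00141 by limma). Reads in C3 made up 1.35 ± 0.0501% of all reads in genes in TgL and 3.16 ± 0.295% in TgLC livers, 2.33-fold more. The factors of the alternative arm that act on C3 did not pass, so 1 of 4 genes of this arm was called.

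Cfb encodes factor B, the protease part of the alternative C3 convertase, and had low counts in every liver, at 75.1, 60.7 and 59.1 normalized counts in TgL and 65.0, 83.9, 125 and 116 in TgLC livers. Cfb and C2 are neighbours on chromosome 17 in RefSeq order. Reads that fall on more than 1 gene may have been left uncounted, so counts of both may be too low, which was not tested. TgLC mouse 1 lay within the TgL range and the other TgLC mice above it. The log2 fold change of 0.54 (SE 0.24, adjusted p = 0.122 by limma) became 0.72 without TgLC mouse 1 (adjusted p = 0.0316 by limma). Cfp encodes properdin, which stabilizes that convertase, and was at 359, 346 and 423 in TgL and 546, 528, 643 and 374 in TgLC livers. Only TgLC mouse 4 lay within the TgL range, and without it the log2 fold change of 0.45 (adjusted p = 0.0899 by limma) was 0.60 and passed (adjusted p = 0.0150 by limma).

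Cfd encodes factor D, the protease that cuts factor B, and is known as a product of adipocytes. It was at 32.2, 43.8 and 1.02 normalized counts in TgL and 20.0, 23.5, 0 and 0 in TgLC livers, a log2 fold change of -1.60 (SE 1.499, adjusted p = 0.450 by limma). Leaving out 1 liver moved that value to -3.02 (TgL mouse 3), -0.997 (TgL mouse 1), -0.78 (TgL mouse 2) or -0.85 (TgLC mouse 3 or 4), and none of these passed. The 4 mice of the number series had 20.0 or more and the 3 mice outside it 1.02 or fewer, in both genotypes. The adipocyte genes Adipoq and Plin1 together were at 18.8, 21.9 and 0 and 19.0, 25.6, 0 and 0 in the same mice. Of 8 adipocyte markers listed, 7 were in the table and 3 were tested, with 0 called, and the summed level of the list was 145 to 268 in TgL and 194 to 348 in TgLC livers. The 3 tested were not near 0 in the mice outside the series. Plin4 was at 35.7 to 74.9 there (56.3 to 182 in the series), Lipe at 78.5 to 118 (74.0 to 122) and Adrb3 at 30.6 to 47.1 (32.2 to 57.0). Retn and Cidea, too low to test, were at 0 to 4.01 there. The part of adipocyte RNA in the Cfd values was not tested.

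**Figure D2:**
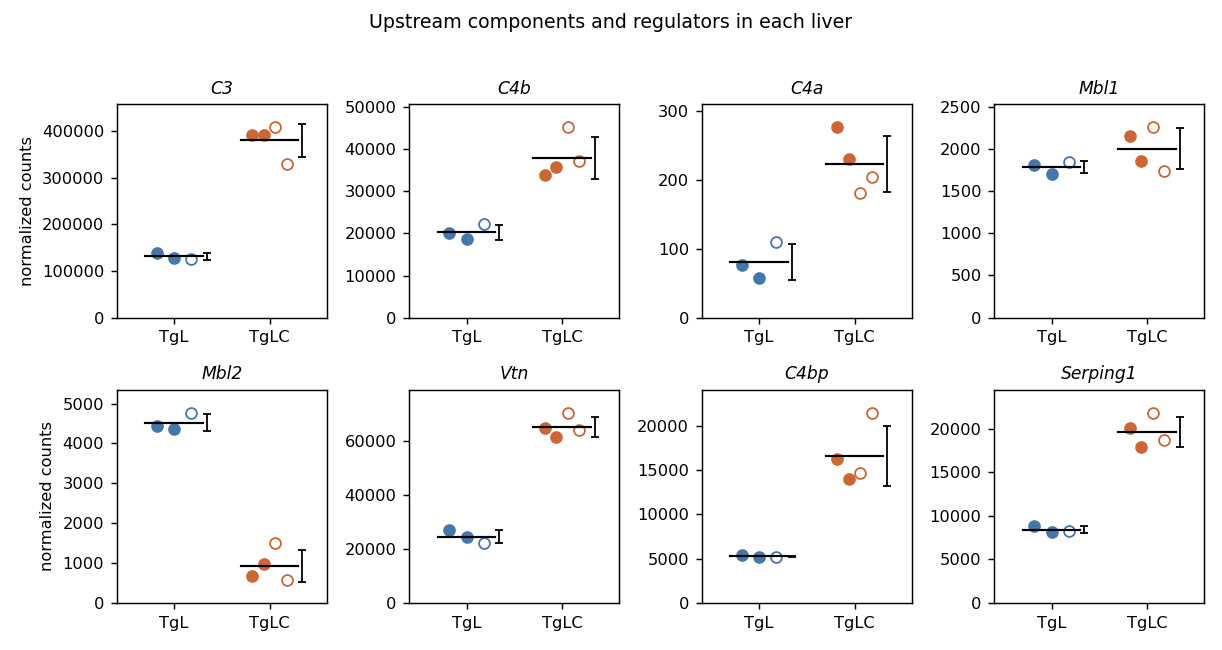
Normalized counts (y axis, linear from 0) of C3, C4b, C4a, Mbl1, Mbl2 and the regulators Vtn, C4bp and Serping1 in each liver, with TgL in blue and TgLC in orange, the mean as a horizontal line and the SD as a bar. Filled points are mice labelled in the number series and open points mice outside it. In every panel but Mbl1 the groups lie apart, and Mbl2 alone is lower in TgLC livers, at 568 to 1490.5 against 4370 to 4773.

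Genes of the terminal complex moved in opposite directions: C8a and C8b were called higher and C8g and C9 lower, out of 6 genes. C8a encodes the alpha chain of C8, the component that first enters the membrane, and was at 4069, 4723 and 3358 normalized counts in TgL and 11046, 11288, 13100.5 and 9934 in TgLC livers. C8b encodes the beta chain, and was at 1968, 2413 and 1822 in TgL and 4524, 3571, 4753 and 3681 in TgLC livers. Both chains lay above every TgL liver in each TgLC mouse. C8a had means of 4049.8 ± 683 and 11342 ± 1312 and a log2 fold change of 1.49 (SE 0.15, adjusted p = 0.000171 by limma). C8b, at 2068 ± 308 and 4132 ± 594, had a log2 fold change that rounds to 1.00 and lies just under the DEG limit (SE 0.15, adjusted p = 0.00141 by limma). C8a and C8b are adjacent on chromosome 4 in RefSeq order.

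C8g encodes the gamma chain, a lipocalin bound to the alpha chain in the secreted C8 protein, and lies on chromosome 2. It was at 3014, 2964 and 2969 normalized counts in TgL and 1124, 1219, 2331 and 800.4 in TgLC livers. TgL livers differed little among themselves, while TgLC livers ranged widely, with mouse 3 highest and mouse 4 lowest, all below every TgL liver. Its means were 2982 ± 27.2 and 1369 ± 666, with a log2 fold change of -1.24 (SE 0.30, adjusted p = 0.0131 by limma). C8a reads per C8g read went from 1.36 ± 0.231 in TgL to 9.28 ± 2.80 in TgLC livers, with ranges of 1.13 to 1.59 and 5.62 to 12.4, and C8b reads per C8g read from 0.694 ± 0.106 to 3.40 ± 1.14. Per kilobase of exon, C8g was the most abundant chain in TgL livers, at 1998 normalized counts per kb beside 1114 for C8a and 812 for C8b. In TgLC livers it was the least abundant, at 917 beside 3119 and 1624.

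C9 forms the wall of the pore, in which many copies join. It was at 3674, 3309 and 2899.8 normalized counts in TgL and 2810.1, 1548, 1583 and 2188 in TgLC livers. The groups were separated by a narrow gap, between TgLC mouse 1 and TgL mouse 3, with means of 3294 ± 387 and 2032 ± 596 and a log2 fold change of -0.73 (SE 0.21, adjusted p = 0.0284 by limma). The call was lost without TgL mouse 1 (adjusted p = 0.109), TgL mouse 2 (0.0864), TgLC mouse 2 (0.0634) or TgLC mouse 3 (0.0533), and within the number series (0.0565), all by limma, and its log2 fold change stayed between -0.62 and -0.73 in the 4 fits without a mouse. C9 reads per C8a read were 0.701 to 0.903 in TgL and 0.121 to 0.254 in TgLC livers.

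Hc encodes C5, whose cleavage opens the terminal pathway, and was at 12753, 11254 and 10969 normalized counts in TgL and 17959, 16227, 17930.1 and 11581 in TgLC livers. TgLC mouse 4 lay within the TgL range and the other TgLC mice above it. The log2 fold change of 0.43 (SE 0.18, adjusted p = 0.0999 by limma) did not pass, and without TgLC mouse 4 it was 0.58 (adjusted p = 0.0188 by limma). C6, which joins C5b as the complex begins to form, averaged 372 ± 24.9 and 620.1 ± 273 normalized counts, with TgL livers from 344 to 393 and TgLC livers from 333 to 940.0. TgLC mice 1 and 2, at 940.0 and 741, were higher than TgLC mice 3 and 4, at 466 and 333, of which the last lay below every TgL liver. C6 had a log2 fold change of 0.63 (SE 0.31, adjusted p = 0.159 by limma), which became 0.89 without TgLC mouse 4 (adjusted p = 0.0289 by limma) and 1.21 within the number series (adjusted p = 0.000722 by limma). It fell to 0.39 without TgLC mouse 1 (adjusted p = 0.286 by limma) and was 0.0049 in the mice outside the series (adjusted p = 0.993 by limma). A test of the difference in genotype effect between the number series and the mice outside it, chosen after seeing the data, gave -1.20 for C6 on the log2 scale (adjusted p = 0.0855 by limma). It called 0 of the 37 genes (6 at an unadjusted p under 0.05) and 1.86% of all genes tested. The summed level of 10 stellate cell markers, 4 of them called higher and none at 0, was likewise above the others in TgLC mice 1 and 2 (11643 and 8491, against 3585 to 4953 in the other 5 livers), and its part in the C6 values was not tested.

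**Figure D3:**
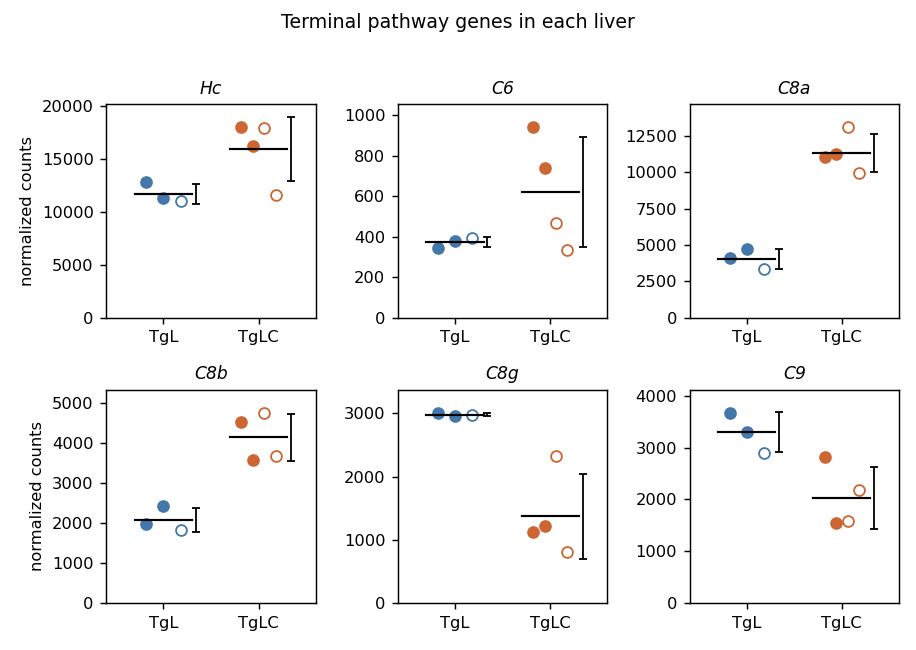
Normalized counts (y axis, linear from 0) of the 6 terminal pathway genes in each liver, with TgL in blue, TgLC in orange, the mean as a line and the SD as a bar, and with open points for mice outside the number series. C8a and C8b lie higher and C8g and C9 lower in every TgLC liver, while Hc and C6 overlap between groups.

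Most soluble regulators rose. Of 6 genes 5 were called higher (C4bp, Vtn, Serping1, Cfi and Clu) and 0 lower, with a median log2 fold change of 1.02. C4bp encodes C4b-binding protein, a cofactor that inactivates C4b, and was at 5359, 5169 and 5194 normalized counts in TgL and 16219.8, 14023, 14636 and 21485 in TgLC livers. TgL livers were within a narrow range, and TgLC mouse 4 was highest. C4bp had means of 5241 ± 103 and 16591 ± 3392 and a log2 fold change of 1.64 (SE 0.16, adjusted p = 0.000139 by limma), a 3.17-fold difference and the largest rise of the 37 genes. Vtn encodes vitronectin, which keeps the terminal complex off membranes, and was at 27119.9, 24622 and 22133 in TgL and 65056, 61538, 70636 and 64146 in TgLC livers. All TgLC livers lay at least 2.27-fold above the highest TgL liver, with means of 24625 ± 2494 and 65344 ± 3829.9 and a log2 fold change of 1.41 (SE 0.16, adjusted p = 0.000265 by limma).

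Serping1 encodes C1 inhibitor, which blocks C1r, C1s and the MASPs, and was at 8846, 8085 and 8270.1 normalized counts in TgL and 20035, 17883, 21847 and 18750.5 in TgLC livers. The groups lay apart by 2.02-fold, with means of 8400.3 ± 397 and 19629 ± 1723 and a log2 fold change of 1.22 (SE 0.13, adjusted p = 0.000196 by limma). Cfi encodes factor I, the protease that destroys C3b and C4b, and was at 7829.8, 6899.8 and 7631 in TgL and 12865, 12444, 14587 and 12596 in TgLC livers. Clu encodes clusterin, an inhibitor of the terminal complex, and was at 11819, 11454 and 9561 in TgL and 17228, 16907, 20186 and 18762 in TgLC livers. Neither gene overlapped between groups, with log2 fold changes of 0.82 for Cfi and 0.74 for Clu (SE 0.12 and 0.14, adjusted p = 0.00141 and 0.00422 by limma). Reads of its substrate C3 per read of Cfi ranged from 16.5 to 18.5 in TgL and from 26.1 to 31.4 in TgLC livers.

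Cfhr2 was the exception among the soluble regulators, at 4156, 4326 and 4374 normalized counts in TgL and 3555, 3114, 4363 and 3739 in TgLC livers. TgLC mouse 3 lay within the TgL range and the others below it. Its log2 fold change of -0.22 (SE 0.13, adjusted p = 0.227 by limma) did not pass, although it passed at -0.35 within the number series (adjusted p = 0.0300 by limma) and at -0.54 with library totals (adjusted p = 0.00792 by edgeR). Cfhr2 has close copies, so some reads may be shared with them.

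The 3 membrane regulators gave no call, in either direction. Cd59a encodes a membrane protein that blocks C9, and was at 640.3, 491 and 543 normalized counts in TgL and 342, 361, 538 and 422 in TgLC livers. TgLC mouse 3 lay within the TgL range and the others below it, with a log2 fold change of -0.44 (SE 0.17, adjusted p = 0.0872 by limma), and without TgLC mouse 3 the log2 fold change was -0.57 and passed (adjusted p = 0.0174 by limma). Cd55 encodes decay-accelerating factor, which breaks up C3 convertases, and was at 189, 218 and 205 in TgL and 339, 311, 317 and 187 in TgLC livers. TgLC mouse 4 was lowest of all 7 livers and the other TgLC mice lay above every TgL liver. The log2 fold change of 0.47 (SE 0.20, adjusted p = 0.117 by limma) became 0.66 without TgLC mouse 4 (adjusted p = 0.00679 by limma). Cr1l encodes Crry, a rodent membrane regulator that acts on C3b and C4b, and was at 469, 439.9 and 446 in TgL and 464, 410.5, 544 and 473 in TgLC livers. Its groups overlapped, with a log2 fold change of 0.06, an interval of -0.21 to 0.34, and values of -0.0094 without TgLC mouse 3, -0.057 within the number series and -0.25 with library totals.

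Of the 4 receptors, 1 was called, C3ar1, and it was lower. C3ar1 encodes the receptor of C3a and is typical of myeloid cells. It was at 60.8, 56.7 and 46.9 normalized counts in TgL and 30, 36.9, 24.3 and 19.0 in TgLC livers. All TgLC livers lay below all TgL livers, with a log2 fold change of -0.999 (SE 0.26, adjusted p = 0.0177 by limma), and the call was lost without TgL mouse 1 (adjusted p = 0.0790 by limma) or TgL mouse 2 (adjusted p = 0.0673 by limma). C5ar2, the second C5a receptor, was at 36.7, 30.9 and 26.5 in TgL and 37, 61.4, 59.7 and 45.1 in TgLC livers. Every TgLC liver lay above the TgL livers, TgLC mouse 1 by 1.01-fold, and the log2 fold change of 0.66 (SE 0.24, adjusted p = 0.0652 by limma) did not pass but did so at 0.80 without TgLC mouse 1 (adjusted p = 0.0333 by limma).

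Cd93, which encodes an endothelial and myeloid membrane protein first described as a C1q receptor, was at 72.4, 105 and 114 normalized counts in TgL and 207, 132, 116 and 132 in TgLC livers. The groups were adjacent without overlap, and it had a log2 fold change of 0.58 (SE 0.23, adjusted p = 0.0892 by limma). C5ar1, the main C5a receptor, averaged 10.8 ± 6.10 and 21.7 ± 12.3 normalized counts, few reads in any liver, with a log2 fold change of 0.97 and an interval of -0.24 to 2.17. Beside these genes, 4 of 7 tested monocyte markers were called higher (sums of 161 to 263 in TgL and 330 to 616 in TgLC livers) and 4 of 5 tested neutrophil markers (32.8 to 104 and 112 to 248). The Kupffer and endothelial lists had 0 of 10 and 1 of 10 called higher, with 0 and 1 lower. The part of these cells in the receptor values was not tested.

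By separation of groups, 13 of the 37 genes were higher and 4 lower in every TgLC liver than in every TgL liver, beside 21.1% and 19.9% (41.1% in either direction) of all genes tested. They are the called genes other than C1qb, joined by C5ar2 and Cd93.

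Taken as a share of sequencing, the 37 genes held 2.75, 2.64 and 2.61% of the reads in genes in TgL livers and 5.20, 5.23, 5.27 and 4.59% in TgLC livers. The share in every TgLC liver was above the TgL range, and the means were 2.67 ± 0.0764% and 5.07 ± 0.323%. C3 held 50.8 ± 0.431% of these complement reads in TgL and 62.1 ± 2.24% in TgLC livers, and C3, Vtn and C4b together 68.2 ± 0.589% and 79.1 ± 1.19%. The other 36 genes held 1.31 ± 0.0266% of all reads in genes in TgL and 1.92 ± 0.0768% in TgLC livers. Alb, the albumin gene, took 9.92 ± 0.418% and 5.22 ± 0.453% of the reads. On the scale of normalized counts per kb of exon, the order in TgL livers began with C3 (25498), Vtn (12130.5), Mbl2 (4154), Serping1 (3613) and C4b (3569). In TgLC livers it began with C3 (73868), Vtn (32189), Serping1 (8443), C4b (6670.4) and Cfi (5911). Lowest were C5ar1, C5ar2 and C3ar1 in TgL and C3ar1, C5ar1 and Cfd in TgLC livers.

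**Figure D4:**
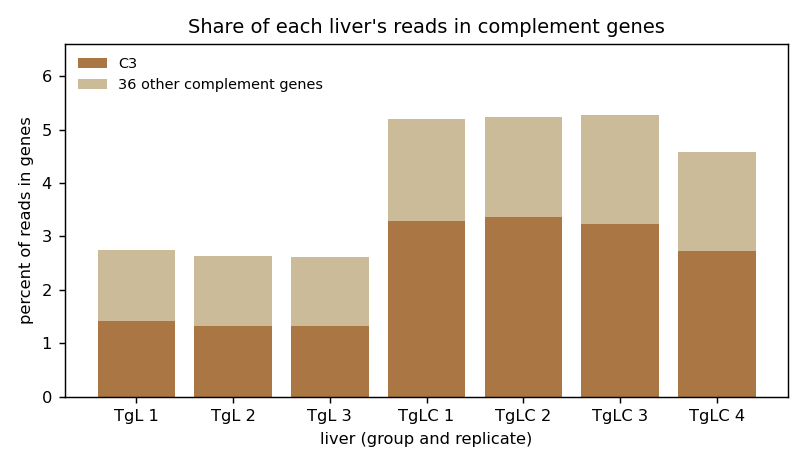
Percent of each liver's reads in genes (y axis, from 0) that fell in C3 (dark) and in the other 36 complement genes (light), for each of the 7 livers. The whole bars reach 2.61 to 2.75% in TgL and 4.59 to 5.27% in TgLC livers, and C3 makes up 50.5% or more of each bar.

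A further list of 25 complement pathway genes outside the 37 had 24 in the table and 19 tested, of which 5 were called higher, 2 lower and 12 not, beside the 31.2% of all genes. Apcs, serum amyloid P component, a pentraxin that binds C1q and an acute-phase protein of the mouse, was at 1678, 1143 and 1192 normalized counts in TgL and 45412, 38319.9, 46226 and 48358 in TgLC livers. It had a log2 fold change of 5.07 (SE 0.17, adjusted p = 5.17e-07 by limma), a 33.3-fold difference and the largest on the list, while its neighbour in RefSeq order Crp, another pentraxin, was at 5462 ± 202 and 4829 ± 1014 and did not pass at a log2 fold change of -0.20 (adjusted p = 0.399 by limma). C7, the terminal component that follows C6, was at 11.6, 5.97 and 5.10 in TgL and 148, 172, 55.7 and 106 in TgLC livers. From a few reads in each TgL liver it came to 55.7 or more in every TgLC liver, with a log2 fold change of 3.78 (SE 0.41, adjusted p = 0.000232 by limma). C7 completes the terminal set, where C7, C8a and C8b were called higher, C8g and C9 lower, and Hc and C6 did not pass.

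The remaining DEGs of that list lie at the surface of cells or act inside them. Itgam, the alpha chain of complement receptor CR3 on neutrophils and monocytes, was at 6.26, 1.99 and 9.18 normalized counts in TgL and 43.0, 18.4, 16.2 and 33.1 in TgLC livers, with a log2 fold change of 2.14 (SE 0.52, adjusted p = 0.0136 by limma). Itgam is itself 1 of the monocyte markers summed above, so the 2 results are not independent. Calr, calreticulin, a chaperone that binds C1q, was at 6783, 7634 and 6306 in TgL and 12662, 13594, 15375 and 17443 in TgLC livers, with a log2 fold change of 1.09 (SE 0.15, adjusted p = 0.000831 by limma). Susd4, a membrane inhibitor of complement, was at 43.8, 51.8 and 46.9 in TgL and 8.0, 11.3, 16.2 and 15.0 in TgLC livers. Every TgLC liver lay below the TgL livers by at least 2.71-fold, with a log2 fold change of -1.87 (SE 0.29, adjusted p = 0.00161 by limma). Cd59b, the close copy of Cd59a, was at 20.6, 29.9 and 32.6 in TgL and 12.0, 6.14, 10.1 and 12.0 in TgLC livers, a log2 fold change of -1.39 (SE 0.34, adjusted p = 0.0145 by limma). Its call was lost without TgL mouse 2 (adjusted p = 0.0648 by limma) or TgL mouse 3 (adjusted p = 0.0589 by limma). Cpn2, a subunit of carboxypeptidase N, which trims C3a and C5a, was also called higher, at a log2 fold change of 0.61, but not without TgL mouse 2 (adjusted p = 0.0608 by limma) or with library totals (adjusted p = 0.113 by edgeR).

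**Figure D5:**
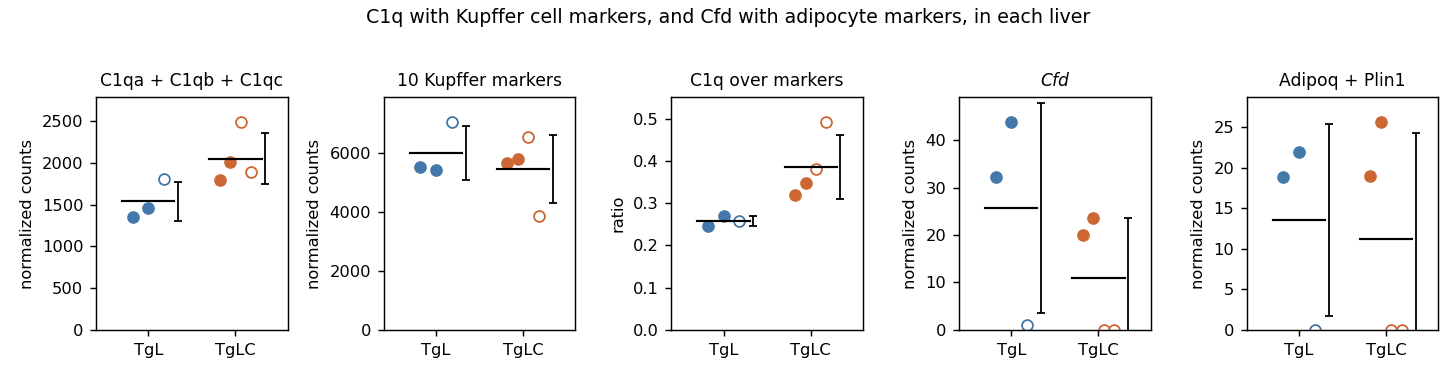
Summed C1q chains, 10 summed Kupffer markers, their ratio, Cfd, and summed Adipoq and Plin1 in each liver (y axes, normalized counts or a ratio, linear from 0), with TgL in blue, TgLC in orange, lines for means, bars for SD (drawn down to 0 only) and open points for mice outside the number series. The C1q ratio is 0.246 to 0.270 in TgL and 0.319 to 0.491 in TgLC livers, and Cfd and summed Adipoq and Plin1 are near 0 in the same 3 mice. Other adipocyte markers are not drawn.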

How the data were processed

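Liver poly-A RNA of 3 TgL and 4 TgLC mice was sequenced in bulk. Per the labels, the authors ran DESeq2 1.20.0, HISAT2 2.0.5, featureCounts 1.5.0-p3 and fastp. Which build, annotation and strand setting they chose is not stated by any source used here. Genes that overlap, or lie antisense to each other, may therefore share reads. The deposited values are a signal, namely counts per gene divided by the authors by 1 DESeq2 size factor per mouse. Dividing by the value of 1 read gave whole reads for 100% of values in every mouse (tolerance 1e-06), and these recovered counts gave the depths and entered the alternative tests, not the main test. Symbols from GENCODE matched 22679 of 23594 gene IDs.

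The 13145 genes whose mean reached 10 normalized counts were tested by limma 3.58.1 (R 4.3.3) on log2(value + 1), with pseudocount 1, genotype as the term, an intensity trend and Benjamini-Hochberg adjustment over all genes tested. Fold changes of low genes are understated on this scale. The fit was tested on simulated data. The 37 genes and all lists were chosen with earlier results of these data known. All 37 genes are named, and values in every mouse are given for DEGs and for up to 3 further genes per arm with the smallest adjusted p. 1 complement gene, outside both the 37 and the further list, is not reported here. A gene named outside this rule was chosen after its values were seen. Alternatives were edgeR 4.0.16 with DESeq2 size factors, TMM or library totals, DESeq2 1.42.0, limma-voom, pseudocounts of 0.5 and 5, no minimum or a minimum of 50, leaving out each mouse, and the label series as a subset or covariate. Levels per kilobase used merged exon lengths of a GENCODE annotation that may not be the authors'. Intervals of log2 fold changes are 95% limma intervals. Each mouse is 1 biological sample, and depth was 9367681 to 12448961 reads in genes, which limits precision for genes with few reads.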

Additional observations from a re-analysis of the deposited data

Results flagged for a closer look

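Among the complement genes and Lif, 38 groups of 4 TgLC livers were examined for a single liver far from the others, which chance gives in about 1 in 20 groups. TgLC mouse 3 had 520 normalized counts of Fcna, and the nearest other TgLC liver had 293. Fcna did not pass the test with or without this mouse. TgLC mouse 4 had 25.0 normalized counts of Lif, and the nearest other TgLC liver had 12.3.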

How the results depend on the processing

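No paired analysis was possible because the labels give no replicate numbers shared by TgL and TgLC mice. Over 19 other settings the 16 called genes never changed direction. Of 698 pairs of a gene and a setting, 629 kept direction and call, 34 lost the call, 24 gained it and 11 changed sign, all 11 in genes that had not passed. Of the 21 genes that had not passed, 14 passed under some setting. The like share over all genes was not counted. Among the 19 settings is the fit outside the number series, with a single TgL liver, and its lost calls are part of the 34. All genes called went from 31.2% to 41.5% with library totals and to 38.4% within the number series.

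Genes called higher numbered 12, and 10 to 14 when each mouse was left out in turn, 20 within the number series and 6 under the DEG fold limit of 1. Of all genes tested, 19.7% to 31.1% were called in either direction with a mouse left out, 38.4% within the number series and 14.2% under that limit. In the 3 mice outside the series a single TgL liver remained, and the number of calls there is not given, although that fit is among the settings above. Genes called lower numbered 4, and 2 to 4 with a mouse left out (2 without TgL mouse 1 or TgL mouse 2), 7 with library totals and 2 under the DEG fold limit. With library totals 4286 of all 13145 genes tested were called lower. In the further complement list, higher calls numbered 5, and 4 to 5 with a mouse left out. Lower calls in that list went from 2 to 6 with library totals and to 0 with a minimum mean of 50, and were 1 to 3 with a mouse left out (1 without TgL mouse 2 or TgL mouse 3). The difference in Lif was 13.4 normalized counts and 9.84 to 14.9 with a mouse left out. Log2 fold changes that took the opposite sign were those of C1qc (-0.046), C1ra (-0.19), C1s1 (-0.013), Mbl1 (-0.16) and Cr1l (-0.25) with library totals, C1ra (-0.12), C1s1 (-0.013) and Cr1l (-0.057) within the number series, Cr1l (-0.0094) without TgLC mouse 3, and Fcna without TgLC mouse 1 (0.015) and outside the number series (0.16). With a mouse left out, Fcna ranged from -0.30 to 0.015 and Cr1l from -0.0094 to 0.13. Without the mean filter C1qb lost its call (adjusted p = 0.0542 by limma). The causes were not tested, beyond the smaller numbers of mice.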
